A study of Mus musculus with 15 samples.

Results

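Claudins and occludin are the membrane proteins of the tight junction, the seal near the apical edge of epithelial cells. The genes Cldn3, Cldn4, Cldn6, Cldn7 and Ocln were described in mouse prostate epithelial cells transformed by 4 oncogenes and in untransformed primary cultures. Each of the 5 genes had 1 probe set assigned to it alone, out of 19938 genes measured in this way, and all 5 are reported. The genes were listed by name, and the list was made with earlier results of these data known.

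Total RNA was measured on 15 whole-transcript arrays, 3 in each of 5 groups, and all cells came from ventral prostate of FVB mice. The Ras group was transformed by ha-ras, the Src group by v-src, the NeuT group by neuT (activated Erbb2, a receptor of the EGF receptor family) and the Myc group by c-myc, all in cultures of primary prostate epithelium. The control group held primary cultures of the same epithelium that had not been transduced. The transformed cells were stable lines kept in serum-containing medium, whereas the controls grew in a medium for primary prostate epithelium and were moved to the serum-containing one the night before harvest, a difference that cannot be told apart from transformation in any comparison with control. The series' design text counts 3 lines for each oncogene, while the sample labels speak of replicates, so p-values here cover only the spread among these arrays, part of which may be technical. For the vector and promoter of the transduced genes and the age of the mice, the sources used here give nothing.

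Claudins cross the membrane several times, polymerise into strands and set which ions pass between cells, and the mix of claudins differs from tissue to tissue. Occludin, a protein of the MARVEL family, runs along the same strands, and cytoplasmic scaffolds such as Tjp1 tie both to actin. In simple and glandular epithelia, loss of claudins is a usual part of a mesenchymal transition, in which the repressors of the Snail, Zeb and Twist families bind E-box motifs in epithelial promoters.

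Values are log2 expression, so that a difference of 1 is a doubling. A probe set's brightness depends on its own sequence, so levels are compared between groups and not between genes. The median of all gene values was 6.47, and background was not measured here, so that levels below 6.47 may lie near it and fold changes that reach such a level are of unsure size. Fold changes are from limma with a 95% interval or SE, and a gene was called at an adjusted p under 0.05 (Benjamini-Hochberg over 19938 genes, two-sided).

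Control array 3 differed from its group by holding transcripts of kidney tubules, with a mean level of 9.37 over 12 tubule markers against 5.55 and 5.58 in control arrays 1 and 2, and 10 of the 12 were at least 2-fold higher in it. Of the 46 other tight junction genes measured, 4 exceeded the mean of the other controls there by 2-fold or more, as did 685 of all 19938 genes. The 4 were Cldn8, Cldn10, Cldn16 and Cldn2, claudins of the nephron, which were named after their values were seen. Cldn10 was at 8.75 in control array 3 and at 4.88 and 4.95 in the other controls. The 5 genes described here moved the other way in this array, by -0.71 for Cldn4, -0.36 for Cldn6, -0.35 for Cldn7, -0.34 for Cldn3 and -0.09 for Ocln on the log2 scale, against a median of -0.06 over all genes. Their part in the comparisons was measured by leaving that array out, and all calls of the 5 genes against control were the same without it.

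The labels were checked on the transduced genes. Erbb2 was higher in the NeuT arrays than in control (log2 fold change 1.70 ± 0.13, SE). Myc itself, in the arrays with that label, was lower than in control (-0.92 ± 0.19), and Src in the Src arrays was at 7.08 against 7.04 in control (adjusted p = 0.743). Hras was not analysed here. Whether these mouse probe sets read the transduced copies was not tested, so the groups are named by their labels, and directions drawn from the Ras, Src and Myc groups rest on those labels. Epithelial identity was checked on Epcam, Cdh1, Krt8, Krt18, Krt19, Krt5 and Krt14. All 7 were lower in the Ras arrays than in control, by a median log2 fold change of -5.25, and the mean level of the 7 was 6.32 to 7.07 in the Ras arrays, 10.75 to 10.88 in Src, 9.90 to 10.08 in NeuT, 10.55 to 10.59 in Myc and 11.23 to 11.63 in control. The Ras arrays thus went against an epithelial label by these markers, and fewer epithelial cells cannot be told apart from less claudin RNA in each cell. The mean hides that its genes changed by unlike amounts outside Ras, and in both directions in Src. Cdh1 fell in Src (-1.22 ± 0.13), NeuT (-0.71 ± 0.13) and Myc (-1.58 ± 0.13). The basal keratin Krt5 fell in NeuT (-5.26 ± 0.14) and Myc (-1.73 ± 0.14) and rose in Src (1.23 ± 0.14), and its partner Krt14 fell in NeuT (-3.42 ± 0.15) and Myc (-0.80 ± 0.15) and did not pass in Src (0.32 ± 0.15). The luminal keratin Krt8 fell in Src (-1.46 ± 0.10) and Myc (-0.50 ± 0.10) and did not pass in NeuT (-0.03 ± 0.10). Whether this difference in keratins had a part in the claudin levels was not tested. Ras array 1 had the highest epithelial mean of its group, with Krt18 at 9.83 against 6.58 and 5.80 in Ras arrays 2 and 3.

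**Figure D1:**
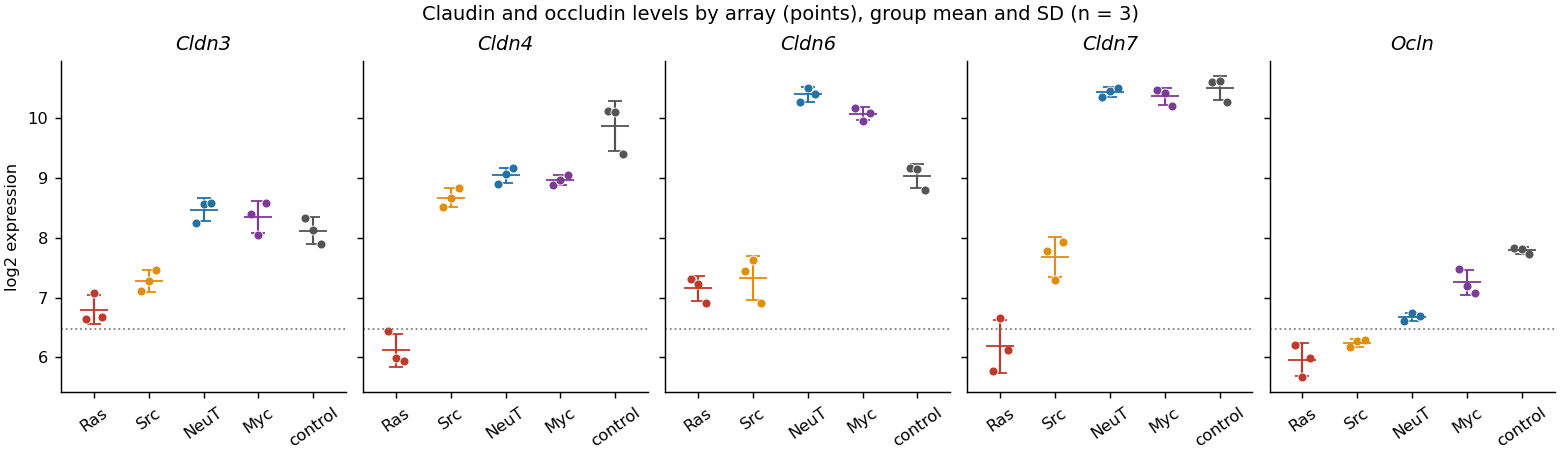
Log2 expression of Cldn3, Cldn4, Cldn6, Cldn7 and Ocln on the 15 arrays (points), with group mean and SD (n = 3) and the median of all gene values as a dotted line at 6.47. Heights are to be compared within a panel. The Ras arrays sit lowest or level with Src in each panel, and for Cldn6 the NeuT and Myc arrays sit above the controls.

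The promoters of 3 of these genes are shown because they differ in how far the genes changed between groups and because factors that bind E-boxes were themselves measured. They are RefSeq sequences of build GRCm38.p6, from 250 bases before to 30 bases after the annotated start, and capitals mark the E-box CACCTG or, as it reads on the other strand, CAGGTG. The Cldn4 window is chr5:134946905-134947184 on the minus strand, the Cldn7 window chr11:69965171-69965450 on the plus strand (the second of 2 annotated starts) and the Cldn6 window chr17:23679115-23679394 on the plus strand.
Cldn4: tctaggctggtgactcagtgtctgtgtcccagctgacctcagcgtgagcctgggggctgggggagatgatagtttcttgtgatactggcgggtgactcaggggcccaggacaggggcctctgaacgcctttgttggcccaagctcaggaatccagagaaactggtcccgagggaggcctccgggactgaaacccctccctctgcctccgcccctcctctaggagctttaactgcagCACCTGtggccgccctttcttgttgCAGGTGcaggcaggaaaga
Cldn7: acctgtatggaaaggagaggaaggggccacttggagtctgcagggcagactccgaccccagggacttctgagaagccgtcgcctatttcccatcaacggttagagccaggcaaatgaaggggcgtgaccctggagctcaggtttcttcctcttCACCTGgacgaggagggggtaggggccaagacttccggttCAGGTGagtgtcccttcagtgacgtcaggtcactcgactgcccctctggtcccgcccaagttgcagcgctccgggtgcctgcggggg
Cldn6: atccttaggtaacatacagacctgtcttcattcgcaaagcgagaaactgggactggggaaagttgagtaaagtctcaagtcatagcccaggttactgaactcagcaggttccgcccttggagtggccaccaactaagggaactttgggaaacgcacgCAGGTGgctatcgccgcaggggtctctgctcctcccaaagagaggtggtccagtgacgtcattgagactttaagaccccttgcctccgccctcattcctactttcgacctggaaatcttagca
Cldn4 had 2 E-boxes, starting at -14 and 12 from the start site, Cldn7 had 2 at -97 and -57, and Cldn6 had 1 at -93. The window of the first Cldn7 start and that of Cldn3 had 0, and the windows of the 2 Ocln starts, which overlap, had 1 and 2, of which 1 is the same site. Over all 32851 promoter windows of this length, 19.05% had at least 1 such motif and 2.52% had 2 or more. The motif AACNNGTT, the core of the grainyhead-like factors, was in 0 of the 7 windows and in 3.96% of all windows. The motifs and the windows shown were chosen after the promoters had been seen, and these matches describe the letters of the windows and show no binding.

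All 5 genes fell in the Ras lines, and Cldn7 and Cldn4 fell furthest. Of all genes, 14.2% fell and 27.4% changed in either direction in Ras lines against control. The log2 fold changes of the 5 had a median of -1.87, beside 0.02 over all genes. Each of the 5 had its 3 Ras arrays below its 3 control arrays, but how many of all genes separated in this way was not counted.

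Cldn7, a claudin of the lateral membrane that binds Epcam, was at 5.78, 6.66 and 6.12 in the Ras arrays, 7.78, 7.29 and 7.93 in Src, 10.34, 10.44 and 10.50 in NeuT, 10.47, 10.41 and 10.20 in Myc, and 10.60, 10.62 and 10.26 in control. The Ras arrays were lowest, the Src arrays next, and the other 9 arrays overlapped. Cldn7 fell 19.8-fold in Ras (log2 fold change -4.31, 95% interval -4.73 to -3.88, limma adjusted p = 1.04e-09) and 7.08-fold in Src (-2.82, -3.25 to -2.40, adjusted p = 2.15e-07). In NeuT and Myc it did not pass against control, with intervals of -0.49 to 0.36 and -0.56 to 0.29. Ras was also below Src (-1.48, -1.91 to -1.06, limma adjusted p = 6.59e-05). The Ras levels lie on either side of 6.47, so the size of the Ras fold change is unsure.

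Cldn4, a claudin of the distal nephron and of many glands that also serves as a receptor for Clostridium perfringens enterotoxin, was at 6.44, 5.98 and 5.94 in the Ras arrays, 8.51, 8.66 and 8.83 in Src, 8.90, 9.06 and 9.16 in NeuT, 8.87, 8.95 and 9.04 in Myc, and 10.11, 10.09 and 9.39 in control. It was below control in each of the 4 line groups without overlap, and the Ras arrays were lower than all others by at least 2.08. The fall was 13.4-fold in Ras (log2 fold change -3.74 ± 0.18, SE, limma adjusted p = 1.41e-09), 2.29-fold in Src (-1.20 ± 0.18), 1.77-fold in NeuT (-0.83 ± 0.18) and 1.88-fold in Myc (-0.91 ± 0.18). These comparisons share the 3 control arrays. Without control array 3, the lowest control, the log2 fold changes were -3.98, -1.43, -1.06 and -1.14 in Ras, Src, NeuT and Myc. Src and NeuT were not called different (-0.37, interval -0.75 to 0.01, limma adjusted p = 0.176). That pair passed without control array 3 (adjusted p = 0.0415), with array weights (0.0197) and with only Src and NeuT fitted (0.0228). The range over all alternatives was 0.0197 to 0.449. Src against Myc (-0.29, -0.67 to 0.09) and NeuT against Myc (0.08, -0.30 to 0.46) did not pass.

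Cldn3, a barrier-forming claudin and likewise a receptor for that enterotoxin, was at 6.64, 7.07 and 6.67 in the Ras arrays, 7.10, 7.28 and 7.46 in Src, 8.24, 8.57 and 8.58 in NeuT, 8.39, 8.05 and 8.58 in Myc, and 8.33, 8.13 and 7.89 in control. The Ras and Src arrays lay below all others, and NeuT, Myc and control overlapped. Cldn3 fell 2.50-fold in Ras (log2 fold change -1.32 ± 0.17, limma adjusted p = 2.71e-05) and 1.79-fold in Src (-0.84 ± 0.17, limma adjusted p = 0.00187). In NeuT (interval -0.01 to 0.70) and Myc (-0.13 to 0.58) it did not pass. Ras was below Src by a gap of 0.03 between the nearest arrays (log2 fold change -0.49, limma adjusted p = 0.0432), and the call was lost under 11 alternatives (adjusted p over all alternatives 0.0127 to 0.156). These included leaving out Ras array 1 (0.142) or 3 (0.132), Src array 2 (0.0968) or 3 (0.156), NeuT array 2 (0.0534) or 3 (0.052), Myc array 1 (0.0551) or control array 2 (0.0538). The others were median centring (0.0795), quantile normalization (0.0653) and the replicate block (0.0599), so the call also turned on the scaling.

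Cldn6, best known from embryonic and early epithelia, moved in opposite directions in the line groups. It was at 7.31, 7.23 and 6.91 in the Ras arrays, 7.45, 7.62 and 6.91 in Src, 10.26, 10.50 and 10.40 in NeuT, 10.17, 9.95 and 10.09 in Myc, and 9.15, 9.14 and 8.79 in control. The 6 NeuT and Myc arrays were above all controls, the 6 Ras and Src arrays below them, and Ras and Src overlapped. Cldn6 rose 2.57-fold in NeuT (log2 fold change 1.36 ± 0.17, limma adjusted p = 2.56e-05) and 2.06-fold in Myc (1.04 ± 0.17, limma adjusted p = 0.000234), where 15.2% and 15.9% of all genes rose. It fell 3.67-fold in Ras (-1.87 ± 0.17, limma adjusted p = 1.02e-06) and 3.25-fold in Src (-1.70 ± 0.17, limma adjusted p = 4.89e-06). Ras and Src were not called different (-0.17, interval -0.53 to 0.18), nor were NeuT and Myc (0.32, -0.04 to 0.68). Ras against NeuT (-3.24) and Src against NeuT (-3.06) had limma adjusted p = 4.46e-09 and 1.37e-08.

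Ocln, which encodes occludin, was at 6.21, 5.67 and 5.996 in the Ras arrays, 6.17, 6.28 and 6.28 in Src, 6.60, 6.74 and 6.69 in NeuT, 7.48, 7.19 and 7.08 in Myc, and 7.82, 7.81 and 7.73 in control. From low to high the order was Ras and Src, which overlapped, then NeuT, Myc and control, each apart from the next. The fall against control was 3.55-fold in Ras (log2 fold change -1.83 ± 0.13, limma adjusted p = 7.25e-08), 2.91-fold in Src (-1.54 ± 0.13), 2.16-fold in NeuT (-1.11 ± 0.13) and 1.45-fold in Myc (-0.53 ± 0.13, limma adjusted p = 0.00469). NeuT was below Myc (-0.57, interval -0.84 to -0.30, limma adjusted p = 0.00606), and this was 1 of 5 of these genes called between those groups, where 14.9% of all genes were called. Src was below NeuT (-0.44, limma adjusted p = 0.0239), a call that was lost on leaving out NeuT array 2 (0.0843) or 3 (0.0693), or Src array 1 (0.0845), 2 (0.0539) or 3 (0.05). Ras and Src were not called different (-0.28, interval -0.55 to -0.02, limma adjusted p = 0.117), although they were without Ras array 1 (0.0277, range over alternatives 0.0277 to 0.393). Of the 15 Ocln values, 6 lay below the median of all genes, those of Ras and Src.

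**Figure D2:**
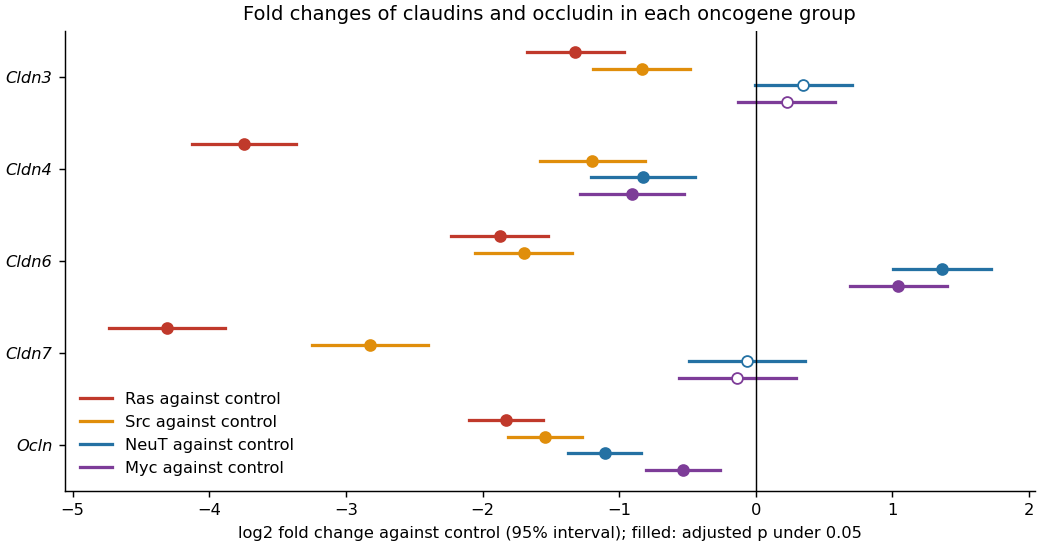
Log2 fold changes of the 5 genes in Ras, Src, NeuT and Myc lines against control with 95% intervals from limma, filled where the adjusted p was under 0.05. All 10 points of Ras and Src are filled and left of 0, from -4.31 to -0.84, and Cldn6 alone is filled right of 0 in NeuT (1.36) and Myc (1.04).

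Counted over the 5 genes, Ras and Src lines had 5 lower and 0 higher against control, and NeuT and Myc lines had 2 lower (Cldn4 and Ocln) and 1 higher (Cldn6). In Src, NeuT and Myc lines 12.2%, 11.6% and 12.7% of all genes fell, and in Ras and Src lines 13.3% and 14.2% rose. In either direction, 26.4%, 26.8% and 28.6% were called in Src, NeuT and Myc. In Ras lines all 5 were at least 2-fold lower, as 3.98% of all genes were. In Src lines 4 were, all but Cldn3, beside 2.93% of all genes. In NeuT lines Cldn6 and Ocln changed by at least 2-fold and in Myc lines Cldn6 alone, beside 5.93% and 6.46% of all genes, and between NeuT and Myc 0 of the 5 did, beside 2.32%. Between oncogenes, all 5 were lower in Ras than in NeuT and in Myc, where 16.5% and 16.6% of all genes were lower. In Src, 4 were lower than in NeuT (all but Cldn4) and 4 lower than in Myc (all but Cldn4), beside 12.2% and 11.4%. Ras was lower than Src in 3 (Cldn3, Cldn4 and Cldn7), beside 14.1%. An F test among the 4 line groups called 5 of 5, and it called 42.1% of all genes.

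The other tight junction genes were taken from a list of 49, of which 46 were measured. In Ras lines 19 fell and 3 rose, in Src lines 17 and 2, in NeuT lines 11 and 8 and in Myc lines 16 and 2. Of all genes, 14.2%, 12.2%, 11.6% and 12.7% fell in Ras, Src, NeuT and Myc, and 13.3%, 14.2%, 15.2% and 15.9% rose. The list counts below are to be read beside these shares. With the arrays centred on their medians the counts were 18 and 6 in Ras, 17 and 2 in Src, 8 and 9 in NeuT and 15 and 2 in Myc, so that the balance in NeuT turned with the scaling. The median log2 fold changes were -0.33, -0.22, -0.09 and -0.22 in Ras, Src, NeuT and Myc, beside 0.02, 0.06, 0.02 and 0.03 over all genes. Most of the 19 other claudins did not pass in any group, with 3 called in Ras, 3 in Src, 3 in NeuT and 4 in Myc. In either direction, 27.4%, 26.4%, 26.8% and 28.6% of all genes were called in Ras, Src, NeuT and Myc.

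Cldn1, the barrier claudin of the epidermis, fell in each of the 4 line groups. It was at 5.08, 5.30 and 4.33 in the Ras arrays, 8.38, 8.37 and 8.24 in Src, 8.43, 8.38 and 8.49 in NeuT, 8.13, 8.81 and 8.36 in Myc, and 10.60, 10.58 and 10.18 in control. The fall was -5.55 ± 0.21 (log2) in Ras, -2.12 ± 0.21 in Src, -2.02 ± 0.21 in NeuT and -2.02 ± 0.21 in Myc, with limma adjusted p from 1.81e-10 to 7.54e-06. Cldn12, an atypical claudin that lacks the usual PDZ-binding tail, rose in NeuT (1.72 ± 0.15) and Myc (1.17 ± 0.15) and did not pass in Ras (-0.03 ± 0.15) or Src (0.32 ± 0.15). Cldn18, a claudin of lung and stomach, was called higher in Ras (0.40 ± 0.06), Src (0.30 ± 0.06), NeuT (0.24 ± 0.06) and Myc (0.23 ± 0.06). The Myc call was lost without control array 3 (adjusted p = 0.0573) or Myc array 1 (adjusted p = 0.0501) and with only Myc and control fitted (adjusted p = 0.0528), and the group means of 5.53 to 5.94 were all below 6.47.

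Among tricellular and MARVEL proteins, 4 of 5 fell and 1 rose in Ras, and 3, 2 and 3 of 5 fell in Src, NeuT and Myc with 0 rising. Marveld2, the tricellulin of junctions where 3 cells meet, fell by -3.12 ± 0.15 in Ras, -1.64 ± 0.15 in Src, -0.46 ± 0.15 in NeuT and -0.47 ± 0.15 in Myc. The tricellular receptor Ildr1 fell by -1.59 ± 0.13 in Ras, -1.42 ± 0.13 in Src, -1.05 ± 0.13 in NeuT and -1.45 ± 0.13 in Myc. Ildr2 rose in Ras (0.86 ± 0.19), a call lost when only the Ras and control arrays were fitted (adjusted p = 0.0709). Of 5 adhesion molecules of the JAM group, 3, 1, 2 and 3 fell in Ras, Src, NeuT and Myc, among them Igsf5 in Ras (-1.20 ± 0.19), Src (-1.65 ± 0.19), NeuT (-1.63 ± 0.19) and Myc (-1.71 ± 0.19), and 1 rose, Jam2 in NeuT (0.56 ± 0.13), which was named after its values were seen.

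Of 9 scaffold genes, 4 fell and 1 rose in Ras, 7 and 1 in Src, 4 and 3 in NeuT and 5 and 0 in Myc. The Crumbs-complex scaffold Patj fell in Ras (-2.79 ± 0.16), Src (-0.85 ± 0.16) and Myc (-1.13 ± 0.16) and did not pass in NeuT (-0.42 ± 0.16). Cingulin, encoded by Cgn, fell in each line group, by -2.01 ± 0.16 in Ras, -1.19 ± 0.16 in Src, -0.49 ± 0.16 in NeuT and -0.84 ± 0.16 in Myc. Its relative Cgnl1 rose in NeuT (1.21 ± 0.13), fell in Src (-0.59 ± 0.13) and did not pass in Ras (0.11 ± 0.13) or Myc (0.24 ± 0.13). The multi-PDZ protein Mpdz rose in NeuT (0.84 ± 0.15) and Ras (0.55 ± 0.15) and fell in Src (-0.52 ± 0.15) and Myc (-1.01 ± 0.15), and the Ras call was lost without Ras array 1 (adjusted p = 0.0564) and with only Ras and control fitted (adjusted p = 0.0567). The membrane scaffold Magi3 fell in Src (-1.43 ± 0.19), NeuT (-0.66 ± 0.19) and Myc (-0.82 ± 0.19). Its relative Magi1 rose in NeuT (0.57 ± 0.11) and Src (0.42 ± 0.11), and the Src call was lost without Src array 3 (adjusted p = 0.051). Of 8 polarity genes, 6, 4, 2 and 3 fell in Ras, Src, NeuT and Myc, and 0, 0, 2 and 0 rose, and Pard6g of the Par complex fell in Ras (-1.86 ± 0.17), NeuT (-1.37 ± 0.17) and Myc (-1.53 ± 0.17).

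**Figure D3:**
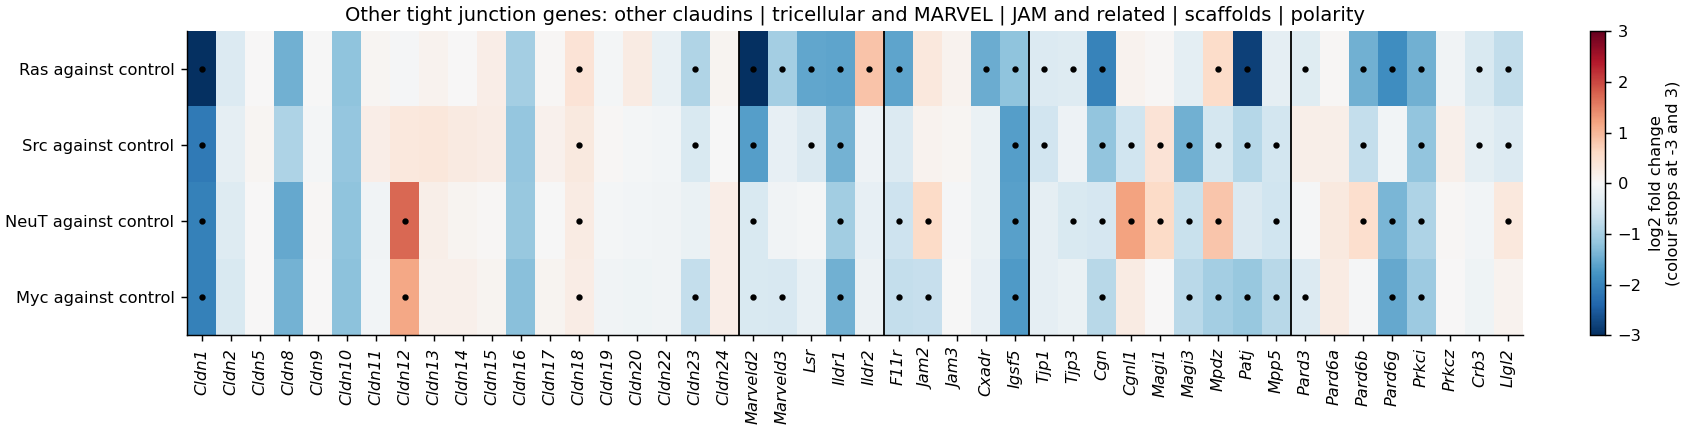
Log2 fold changes against control of 46 other tight junction genes (columns, grouped by role) in Ras, Src, NeuT and Myc lines (rows), with a dot where the adjusted p was under 0.05. Cldn1 is blue in every row, Cldn12 is red in the NeuT and Myc rows, and Cldn8, Cldn10 and Cldn16 are blue without a dot, genes for which control array 3 was far above control arrays 1 and 2.

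Epcam binds Cldn7 at the lateral membrane, and the protease matriptase (St14) and its inhibitors Spint1 and Spint2 control that complex. Of 5 genes of this group measured, 5 fell in Ras, 5 in Src, 4 in NeuT and 3 in Myc, and 0 rose. Epcam was at 4.46, 4.47 and 4.38 in the Ras arrays, 9.18, 9.09 and 9.05 in Src, 9.33, 9.38 and 9.42 in NeuT, 9.89, 9.75 and 9.85 in Myc, and 9.69, 9.78 and 9.53 in control. Its log2 fold changes were -5.23 ± 0.08 in Ras, -0.56 ± 0.08 in Src and -0.29 ± 0.08 in NeuT, and in Myc it did not pass (0.16 ± 0.08). The NeuT call was lost without control array 2 (adjusted p = 0.0623). In Src lines Epcam thus changed by -0.56 while Cldn7 changed by -2.82. St14 fell by -3.83 ± 0.14 in Ras and -0.83 ± 0.14 in Src, Spint1 by -3.05 ± 0.17 and -1.24 ± 0.17, and Spint2 by -2.996 ± 0.10 and -0.9997 ± 0.10. In NeuT and Myc the log2 fold changes were -0.54 and -0.57 for St14, -1.11 and -1.07 for Spint1 and -0.88 and -1.19 for Spint2, of which the St14 calls were lost in fits limited to the NeuT or Myc arrays and control (adjusted p = 0.0859 and 0.0652). The NeuT call of St14 was also lost without control array 1 (adjusted p = 0.0599) or 2 (adjusted p = 0.0538). The protease Prss8 did not pass in Myc (-0.55 ± 0.24, adjusted p = 0.116) and passed there without control array 2 (adjusted p = 0.0232, range over alternatives 0.0232 to 0.449). Without control array 3, which held the kidney tubule transcripts, its change in Myc was only -0.13 (adjusted p = 0.449). The counts above include Prss8 in Ras and Src with that array kept.

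Of 6 transcription repressors that act on claudin and cadherin promoters, 4 rose and 0 fell in Ras, 3 and 1 in Src, 1 and 1 in NeuT and 0 and 2 in Myc. Zeb1 was at 8.81, 8.52 and 8.95 in the Ras arrays, 5.76, 5.97 and 5.86 in Src, 6.32, 6.47 and 6.28 in NeuT, 5.98, 5.87 and 5.89 in Myc, and 6.41, 6.32 and 6.79 in control. It rose in Ras (2.25 ± 0.13) and fell in Src (-0.65 ± 0.13) and Myc (-0.60 ± 0.13). The Src and Myc levels and those of control arrays 1 and 2 lay below 6.47, so the sizes of these changes are unsure. Without control array 3 the Zeb1 change in Myc was -0.46 (limma adjusted p = 0.00688). Snai2 was at 8.82, 9.01 and 8.45 in the Ras arrays, 10.21, 10.06 and 10.27 in Src, 7.40, 7.22 and 7.16 in NeuT, 6.12, 5.93 and 5.81 in Myc, and 8.69, 8.80 and 8.50 in control. It rose in Src (1.52 ± 0.13), fell in NeuT (-1.40 ± 0.13) and Myc (-2.71 ± 0.13), and did not pass in Ras (0.10 ± 0.13). Twist1 rose in Ras (2.38 ± 0.13), Src (1.50 ± 0.13) and NeuT (1.84 ± 0.13). In Myc, Twist1 did not pass (0.12 ± 0.13). Its relative Twist2 rose in Src (0.68 ± 0.12) and Ras (0.57 ± 0.12).

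Of 9 epithelial transcription factors, 7 fell and 0 rose in Ras, 4 and 2 in Src, 3 and 1 in NeuT and 3 and 2 in Myc. Grhl2, a grainyhead-like activator of claudin and cadherin genes, was at 5.64, 5.36 and 5.77 in the Ras arrays, 8.81, 8.73 and 8.92 in Src, 8.53, 8.49 and 8.60 in NeuT, 8.47, 8.45 and 8.53 in Myc, and 8.46, 8.49 and 7.90 in control. The Ras arrays were apart from the other 12 (log2 fold change against control -2.69 ± 0.14, limma adjusted p = 3.2e-09). Ehf, an ETS factor of glandular epithelium, fell by -3.23 ± 0.14 in Ras, -0.42 ± 0.14 in Src, -1.08 ± 0.14 in NeuT and -1.07 ± 0.14 in Myc. Another grainyhead-like gene, Grhl3, fell by -1.12 ± 0.13 in Ras, -0.59 ± 0.13 in Src, -1.20 ± 0.13 in NeuT and -1.04 ± 0.13 in Myc. Grhl1 fell in Ras (-0.85 ± 0.105), Src (-0.34 ± 0.105) and NeuT (-0.83 ± 0.105) and did not pass in Myc (-0.24 ± 0.105). Klf4, a factor of the epidermal barrier, rose in Src (0.98 ± 0.14), NeuT (1.06 ± 0.14) and Myc (0.57 ± 0.14). Grhl2 itself rose in Src (0.54 ± 0.14) and did not pass in NeuT (0.26 ± 0.14) or Myc (0.20 ± 0.14). Whether any of these factors had a part in the claudin levels was not tested.

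**Figure D4:**
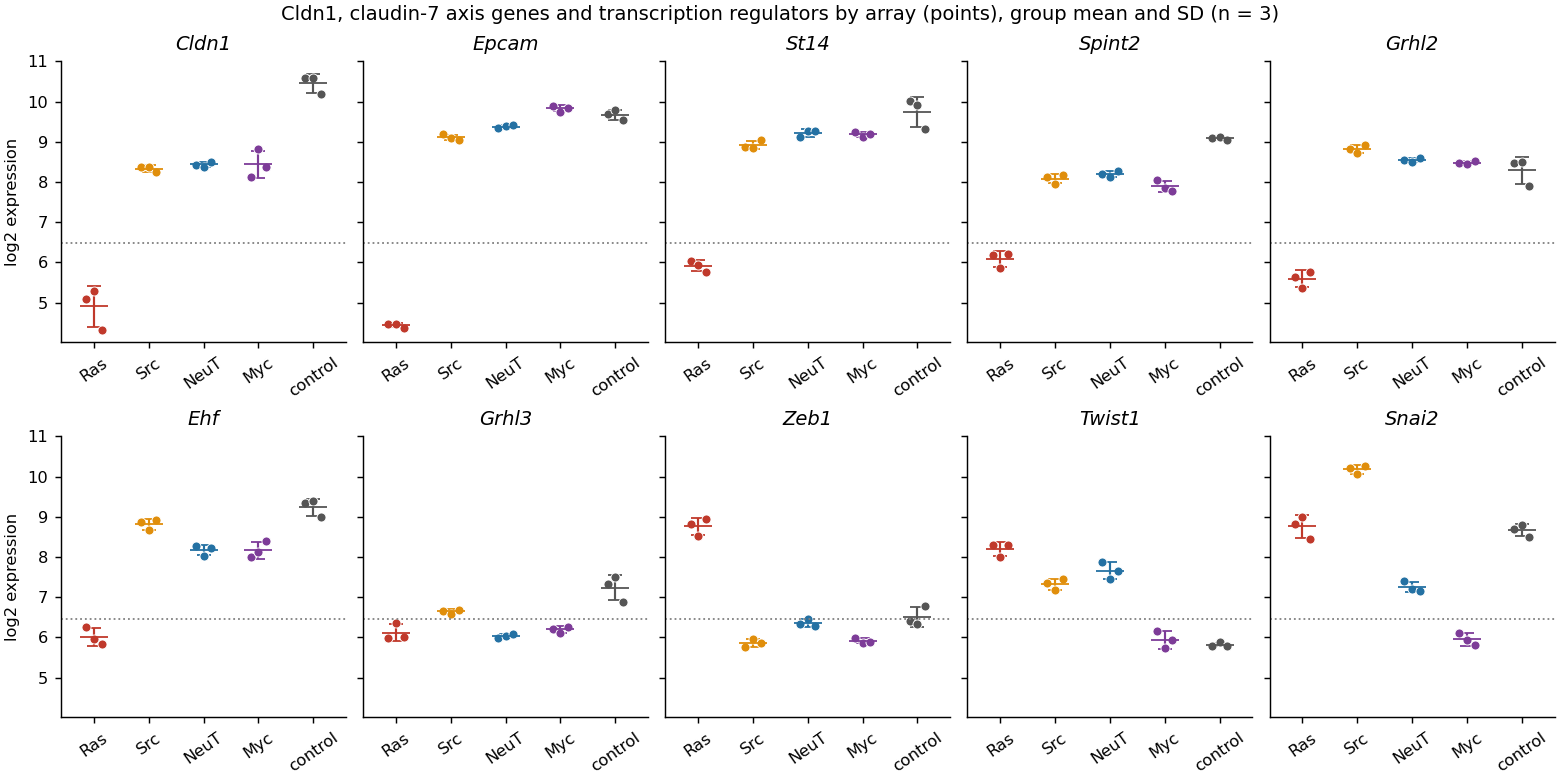
Log2 expression of Cldn1, genes of the Epcam and matriptase group, and transcription regulators on the 15 arrays (points), with group mean and SD (n = 3) and a dotted line at 6.47. Cldn1, Epcam, St14, Spint2, Grhl2 and Ehf are lowest in Ras, Zeb1 is high in Ras, and Snai2 is highest in Src and lowest in Myc.

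Genes with the most similar profile were found for each of the 5 by the mean absolute difference over the 15 arrays, after each gene was centred on its own mean. For Cldn3 they were Pard6b (0.16 on the log2 scale), a polarity gene of the list above, Ctxn1 (0.20) and Wwc1 (0.22), against a median of 0.63 over all other genes. For Cldn4 they were St14 (0.18), the adhesion molecule Mpzl2 (0.21) and Mid2 (0.26), against 0.98. For Cldn6 they were Bspry (0.24), Ano3 (0.34) and Slc4a11 (0.43), against 1.27. For Cldn7 they were Shtn1 (0.21), the non-muscle myosin Myh10 (0.44) and the luminal keratin Krt8 (0.57), against 1.69. For Ocln they were Atp11a (0.17), Mtus1 (0.18) and Sesn3 (0.24), against 0.61. The profile of St14 had group means of 5.92 in Ras, 8.92 in Src, 9.21 in NeuT, 9.18 in Myc and 9.75 in control, and that of Shtn1 had 5.07, 7.20, 9.93, 9.79 and 9.80 in the same order. Among the 5 themselves, Cldn7 and Cldn6 differed by 0.65, Cldn7 and Cldn4 by 0.80, Cldn3 and Ocln by 0.45, and Cldn7 and Ocln by 1.13. These values do not rank the pairs, since the medians over all other genes differed between the 5. By rank among all other genes, Cldn6 was number 8 for Cldn7, Ocln number 840 for Cldn3, and Cldn7 number 19643 for Ocln. Profiles were centred and not scaled, so a rank also depends on how far a gene changed. Cldn7 and Ocln both had their lowest levels in Ras and Src, with log2 fold changes of -4.31 and -1.83 in Ras. Ranks also differed by side, with Cldn4 number 15710 for Cldn3 and Cldn3 number 240 for Cldn4. The 15 arrays fall into only 5 groups, and whether the 3 arrays of an oncogene are separate lines is unsure, so the values are descriptions over few independent points.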

How the data were processed

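Per the labels' protocols, RNA was extracted with Trizol, amplified (WT-Ovation Pico) and labelled with biotin. The deposited values are log2 expression per probe set, normalized across arrays by the authors. The submitters' processing notes name RMA and Affymetrix Expression Console 1.1 without role or order, and the sources used here give neither background settings nor a genome build. Array medians ran from 6.19 to 6.32. Of 35556 probe sets, 21789 had 1 gene in the platform annotation, and for 999 genes with several the brightest by mean was taken (19938 genes). No filter on low values was applied, and the number of arrays limits the precision.

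Group means were fitted over the 15 arrays by limma 3.58.1 (lmFit and eBayes, R 4.3.3), with a spread shared by all groups, and contrasts were each oncogene against control, the 6 pairs of oncogenes and an F test among lines. Lists are described by counts and medians only. Named were the 5 genes, up to 4 lowest and 4 highest called genes of the tight junction list per contrast with control, up to 4 genes by smallest p from the Epcam group and from the regulators, and the 3 most similar profiles. Genes and lists were chosen with earlier results of these data known. Alternatives were median centring, quantile normalization, leaving out dim genes, averaging probe sets, a trended robust variance, array weights, only the groups compared, a replicate block, a 2-fold minimum and leaving out each array. Promoter windows came from RefSeq tables (7 windows matched all 5 genes). Figures used Python 3.11.15 and matplotlib 3.10.9.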

Additional observations from a re-analysis of the deposited data

Results flagged for a closer look

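The 4 line groups differed from each other in the level of each of the 5 genes, by limma's F test among them. The adjusted p was 3.13e-06 for Cldn3, with 1.67 (log2) between the highest and lowest group mean, and 2.86e-08 for Cldn4, with 2.92. It was 1.36e-09 for Cldn6, with 3.24, and 1.26e-09 for Cldn7, with 4.24. For Ocln it was 7.71e-06, with 1.29. In the same test 42.1% of all genes were called. For Cldn6, all 6 arrays of NeuT and Myc were above the controls and all 6 arrays of Ras and Src below them.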

How the results depend on the processing

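Of the fold changes of the 5 genes recomputed under the alternatives, 1127 kept direction and side of the threshold, 16 lost a call, 5 gained one and 2 changed sign. Against control, each of the 5 genes kept its direction and its side of the threshold in each line group under all alternatives run but the 2-fold minimum. The 2 sign changes were between NeuT and Myc, where Cldn3 (0.12) ran from -0.03 to 0.24 on leaving out single arrays and was -0.027 without Myc array 2, and Cldn7 (0.07) ran from -0.01 to 0.12 and was -0.012 without Myc array 3. With a 2-fold minimum, 1 of the 5 genes was called in Myc against control and 0 in NeuT against Myc, and 13, 7, 6 and 8 of the tight junction list were called in Ras, Src, NeuT and Myc against control. Only the groups compared gave 2 of the 5 in NeuT against Myc, where Cldn6 gained a call (adjusted p = 0.0382). Leaving out single arrays moved the counts of the 5 genes only in Ras against Src (2 to 3) and in Src against NeuT (3 to 5, 5 without control array 3), and those of the list to 21 to 24 in Ras, 16 to 20 in Src, 13 to 21 in NeuT and 15 to 21 in Myc. With the replicate number as a block, the counts of the 5 genes were 5, 5, 3 and 3 in Ras, Src, NeuT and Myc against control and 2 in Ras against Src, where Cldn3 lost its call (adjusted p = 0.0599). The numbers were not taken as pairs in the main fit. Deviations of same-numbered arrays of different groups correlated from -0.09 to 0.12 (median 0.02). Those of arrays with different numbers correlated from -0.13 to 0.12 (median -0.01). However, 11 of 15 arrays correlated best with their own number, so the block fit is given as an alternative. The 5 genes had 1 probe set each, so no other probe set could be tried. Levels below 6.47 may lie near background, which among the 5 genes limits the fold changes of Cldn4, Cldn7 and Ocln in Ras and of Ocln in Src. The same limit holds for other genes with levels below it, such as Cldn1, Epcam and Grhl2 in Ras.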

Other observations

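Markers of other cell types gave the following values, as mean log2 level over the measured genes of a list. The endothelial markers (5 of 5 measured) were at 5.14 to 5.22 in Ras, 5.11 to 5.16 in Src, 5.12 to 5.17 in NeuT and 5.05 to 5.12 in Myc, and at 5.03, 5.08 and 7.15 in control arrays 1, 2 and 3. The kidney tubule markers were at 5.51 to 5.74 in Ras, 5.60 to 5.65 in Src, 5.63 to 5.66 in NeuT and 5.59 to 5.61 in Myc. The fibroblast markers (6 of 6) were at 6.43 to 6.81 in Ras, 6.05 to 6.16 in Src, 6.06 to 6.08 in NeuT, 6.01 to 6.02 in Myc and 6.31 to 6.50 in control, and in Ras 2 rose, 1 fell and 3 did not pass. Those that rose in Ras were the proteoglycan Dcn (1.14 ± 0.27, log2) and the collagen Col3a1 (0.54 ± 0.08), the receptor Pdgfra fell (-0.45 ± 0.155), and Col1a1 (-0.09), Col1a2 (-0.08) and Lum (0.19) did not pass. Dcn fell in Src (-1.82 ± 0.27), NeuT (-1.62 ± 0.27) and Myc (-1.74 ± 0.27). The smooth muscle markers (4 of 4) were at 5.84 to 6.69 in Ras, 6.47 to 6.60 in Src, 5.87 to 5.96 in NeuT, 5.87 to 6.05 in Myc and 7.21 to 7.60 in control, and of these Acta2 and Cnn1 fell in each line group while Myh11 and Des did not pass in any. The urothelial markers (5 of 5) were at 5.72 to 5.86 in Ras, 6.09 to 6.37 in Src, 5.74 to 5.75 in NeuT, 5.67 to 5.81 in Myc and 6.49 to 6.72 in control. Upk1b, a uroplakin, had means of 4.91 in Ras, 6.89 in Src, 4.70 in NeuT and 4.96 in Myc, against 8.74 in control (n = 3 each), and was the gene of this list that fell in each line group, with Krt20 also lower in Myc (-0.34). The luminal prostate markers (3 of 5 measured) were at 4.78 to 4.94 in Ras, 5.24 to 5.30 in Src, 5.20 to 5.33 in NeuT, 5.10 to 5.17 in Myc and 6.12 to 6.17 in control. That gap was carried by Tmprss2, which fell by -3.13 in Ras, -2.85 in Src, -3.02 in NeuT and -3.14 in Myc. Hoxb13 fell in Ras (-0.71) and did not pass in Src (0.05), NeuT (0.38) or Myc (0.05), and Pbsn did not pass in any line group (0.02 to 0.14). The leukocyte markers (5 of 6) lay between 5.82 and 6.15 and the seminal vesicle markers (3 of 3) between 4.44 and 4.75 in all 15 arrays. Whether cells of these types had a part in the claudin levels was not tested.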
